A study of Mus musculus with 10 samples.

Results

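The star strands are the array probes whose miRNA name ends in an asterisk, the older mark for the mature miRNA that comes from the less abundant arm of a hairpin. Of 655 probes in the table, 115 carried such a name. Probes assigned to chromosome 12 or X (25 probes), members of the repetitive miR-297, miR-466, miR-467 and miR-669 families (3 probes) and 4 single miRNAs left out by name were not included, so that 83 star miRNAs were described. For 82 of them a guide strand probe, that of the other arm of the same hairpin, was matched by name, on 78 probes, since miR-181a, miR-218, miR-24 and miR-30c each serve as the guide of a pair of stars. The array names the arms of miR-125b as 5p and 3p as well, so that miR-125b* was left unpaired. miR-411*, for which the table gives no chromosome, was kept by the letter of the rule, although RefSeq places it on chromosome 12 (chr12:109710225-109710246, GRCm38.p6).

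Mature miRNAs were profiled by bead array in the livers of 5 LivPGC-1α and 5 WT mice of the FVB/N strain, all aged 4 months and, by the study's account, fed a standard diet and fasted overnight. LivPGC-1α mice carry the human PGC-1α coding sequence in the pLiv.7 construct, behind the Apolipoprotein E promoter, which is used to direct expression to the liver, and the WT mice served as controls. The comparison asks which miRNAs differ when this coactivator of mitochondrial and gluconeogenic genes is overexpressed in the liver. All arrays lay on 1 BeadChip, with LivPGC-1α on the last 5 positions and WT on the first 5, so that genotype and position on the chip cannot be told apart. The labels number separate liver samples, taken here as 1 mouse each, so that a p-value here speaks of the variation among those samples alone. PGC-1α mRNA is not measured on a miRNA array, and the transgene was not analysed here.

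A miRNA hairpin is cut by Drosha and then by Dicer into a short duplex. One strand of the duplex, the guide, is retained in an Argonaute protein and represses mRNAs that pair with its seed, while the passenger or star strand is mostly released and degraded. The strand with the less tightly paired 5′ end, and with U or A as its first base, is loaded more often, although many star strands are also found in Argonaute and some are as abundant as their guides. Both strands are cut from the same transcript, although a guide such as miR-181a, which is made from more than one hairpin, has a star of its own for each.

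The stars whose values are described most closely below are printed first, each followed by its guide, with the seed (bases 2 to 8) in capitals. The sequences are from RefSeq (GRCm38.p6), read 5′ to 3′, and the match of an old star name to the 5p or 3p arm of the current hairpin was made by name.
miR-26b*: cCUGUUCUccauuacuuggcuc
miR-26b: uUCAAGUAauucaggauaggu
miR-425*: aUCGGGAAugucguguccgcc
miR-425: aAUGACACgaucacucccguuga
miR-200b*: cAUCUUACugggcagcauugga
miR-200b: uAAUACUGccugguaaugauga
miR-181a-1*: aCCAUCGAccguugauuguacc
miR-181a: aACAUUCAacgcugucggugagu
miR-17*: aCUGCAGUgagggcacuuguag
miR-17: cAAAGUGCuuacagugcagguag
miR-674*: cACAGCUCccaucucagaacaa
miR-674: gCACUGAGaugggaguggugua
miR-872*: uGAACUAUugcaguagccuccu
miR-872: aAGGUUACuuguuaguucagg
miR-33*: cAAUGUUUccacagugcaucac
miR-33: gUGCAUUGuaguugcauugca

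The miR-26b hairpin lies within Ctdsp1, with the star at chr1:74394360-74394381 on the plus strand. The miR-425 star is at chr9:108568830-108568850 (plus strand) within Dalrd3, the miR-872 star at chr4:94665206-94665227 (plus strand) within Ift74, and the miR-33 star at chr15:82198167-82198188 (plus strand) within Srebf2, which encodes the regulator of cholesterol synthesis SREBP2. The stars of miR-200b (chr4:156055721-156055742, minus strand), miR-181a-1 (chr1:137966508-137966529, plus strand), miR-17 (chr14:115043721-115043742, plus strand) and miR-674 (chr2:117185186-117185207, plus strand) overlap no protein-coding gene in that annotation. In all 8 hairpins the star and the guide have different seeds. Among the stars, a seed was shared by 6 pairs, namely miR-200a* and miR-200b*, miR-30a* and miR-30e*, miR-30c-1* and miR-30c-2*, miR-24-1* and miR-24-2*, let-7b* and let-7f*, and miR-302b* and miR-302c*. Some stars are nearly identical over their whole length, and whether their probes separate them was not tested. The substitution from miR-30a* to miR-30e* is G18A, and those from miR-181a-1* to miR-181a-2* are U5C and U16C, counted from the 5′ end.

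Over all members, the star and guide strands differed in their first base and in GC content. A mature sequence was found for 74 of the 83 stars, of which 49 lie on the 3p arm and 25 on the 5p arm, and the other arm was found for 71. Of these 71 pairs, 11 stars (15.5%) and 44 guides (62.0%) began with U, while 30 stars (42.3%) and 6 guides (8.5%) began with C. The median GC content was 50.0% in the stars and 43.5% in the guides. Among the first 4 bases, the star had fewer A or U than its guide in 36 pairs, as many in 19 and more in 16. These shares are a description of the sequences printed by RefSeq and involve no array value.

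Detection was judged by the scanner's detection p, computed on each array from its negative control beads, with a limit of 0.01. By this limit 70 of the 83 stars were detected on at least 1 array, 57 on all 10 arrays, and 13 on none. The 13 undetected stars were let-7c-1*, miR-9*, miR-99b*, miR-124*, miR-135a*, miR-138*, miR-141*, miR-150*, miR-186*, miR-196a*, miR-302b*, miR-302c* and miR-879*. Several of these belong to hairpins known from other tissues, such as miR-9, miR-124 and miR-138 of the brain. On the brain list 4 of the 5 stars were undetected. The guides miR-9 and miR-124 were also detected on 0 arrays. In contrast, the guide miR-138 was detected on all 10, as were let-7c, miR-99b, miR-141, miR-150, miR-186, miR-196a, miR-302b and miR-879. The guides miR-135a and miR-302c were detected on 9 arrays, so that an undetected star does not mean an undetected hairpin. Between 60 and 64 stars were detected on the LivPGC-1α arrays (62.0 ± 1.6, SD, n = 5), against 57 to 69 on the WT arrays (64.0 ± 4.6, SD, n = 5), with the lowest and the highest count both among WT mice. Of the guides, 74 of 78 were detected on at least 1 array and 70 on all 10.

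The arrays were not equally quiet. The hepatocyte markers miR-122, miR-192, miR-194 and miR-148a were detected on all arrays, with a summed normalized signal of 173566 to 176575 in LivPGC-1α and 169271 to 176845 in WT. The summed signal of 7 striated muscle miRNAs was 7095 to 7509 in LivPGC-1α and 6650 to 8219 in 4 WT mice, but 99224 in WT 1, and the summed signal of 8 miRNAs of a testis-linked X cluster was 11448 to 12102 in LivPGC-1α and 10565 to 12324 in 4 WT mice, but 34113 in WT 3. WT 5 had the fewest detected probes (423). Over the 70 detected stars, the SD between mice on the log2 scale had a median of 0.093 in LivPGC-1α and 0.134 in WT, and it was larger in WT for 52 stars.

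Star probes were dimmer than guide probes for most hairpins, but not for all. The mean normalized signal over the 10 arrays, after quantile normalization, had a median of 2068 over the 83 stars and 22939 over their guides, beside 2094 over all 655 probes. In 70 of 82 pairs the star was dimmer than its guide on every array, in 10 it was brighter on every array, and in 2 the order differed between arrays. The median of log2 star minus log2 guide was −2.27. These 82 pairs include stars and guides that were detected on no array. Over the 67 pairs with both probes tested, the mean difference was below 0 in 57 and above 0 in 10, with a median of −2.55. Signals of different probes are not calibrated against each other, so these are differences in brightness and were not tested. A mean signal above 40000 was reached by 21 guides and 0 stars, while the highest raw signal on an array was between 50062 and 57741.

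**Figure D1:**
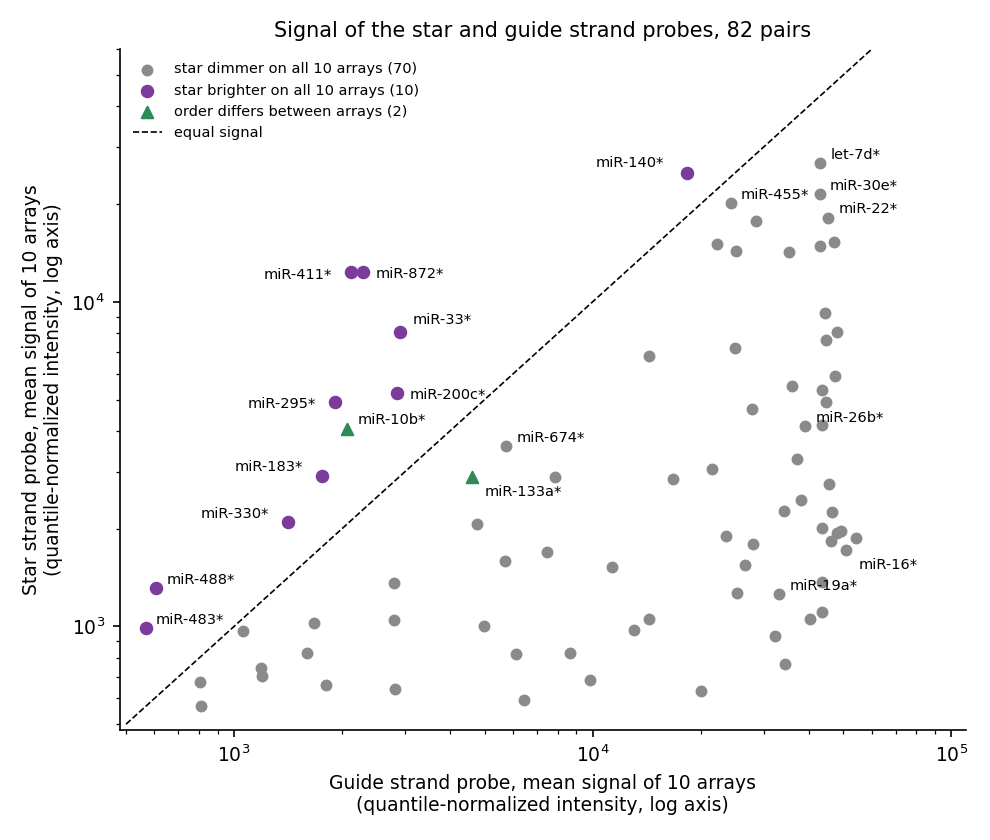
Mean normalized signal of each star probe (vertical, log axis) against that of its guide probe (horizontal, log axis) over 10 arrays, for 82 pairs, with the dashed line marking equal signal. Most points lie below the line, with 70 stars dimmer than the guide on every array (grey), and 10 lie above it on every array (purple).

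The brightest stars were let-7d* (26699.76), miR-140* (24913), miR-30e* (21468), miR-455* (20149.63), miR-22* (18170.44) and miR-199b* (17709). Each of these had a guide probe that was also bright. That of miR-199b* carries the joined name miR-199a-3p/miR-199b, so its signal is not that of the miR-199b hairpin alone. The guide of let-7d*, a member of the let-7 family that restrains proliferation genes, was 1.61 times as bright as the star, that of miR-455* 1.20 times, and that of miR-30e*, whose hairpin lies within Nfyc, 2.00 times. At the other end, miR-24-1* and miR-16* were detected on all 10 arrays, but the probes of their guides, both abundant in most tissues, were roughly 31.6 and 29.6 times as bright. With mean signals of 43491 for miR-24 and 50986 for miR-16, these guide probes lie near the top of the scale, and the ratios are rough.

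The star was the brighter strand on every array for miR-411* (5.82 times its guide; the star that RefSeq places on chromosome 12), miR-872* (5.40 times), miR-33* (2.77 times), miR-295* (2.57 times), miR-200c* (1.84 times), miR-183* (1.66 times), miR-330* (1.48 times) and miR-140* (1.36 times). The array name of miR-411* carries a version suffix (9.1), and its match to the RefSeq sequence was made by name. The substitutions from that sequence to miR-379-3p are C10U and C22U, and whether the probe separates them was not tested. The miR-330 pair was added after its values were seen. miR-488* and miR-483* were also brighter than their guide probes, but these were not above background on any array and no ratio is given, and miR-483* itself was detected only on 2 WT arrays. miR-140, whose hairpin lies within Wwp2, is prominent in cartilage, and its star strand is known to be abundant there.

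The miR-872 pair is shown in full as the clearest case among stars with a printed sequence. miR-872* had signals of 12733, 11776, 12372, 11932.5 and 12518 in LivPGC-1α mice and 11318, 12733, 13252, 13626 and 11584 in WT mice. miR-872 had 2311, 2302, 1989, 2459 and 2673 in LivPGC-1α mice and 2052, 2251, 2188, 2527 and 2188 in WT mice. The brighter strand was the star in every mouse, and neither strand separated the genotypes. The star miR-872* begins with U and its guide with A. Both sequences were found for 8 pairs with a brighter star, those of miR-411, miR-872, miR-33, miR-295, miR-200c, miR-183, miR-488 and miR-483. In these, 3 stars began with U and 5 had fewer A or U in the first 4 bases than the guide. miR-483* is among the 3 and both miR-488* and miR-483* are among the 5, although their guide probes were not above background. Among the 61 pairs with a dimmer star, 8 stars began with U and 31 had fewer A or U than the guide.

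No star miRNA was called between the genotypes. Of the 70 tested stars, 0 passed an adjusted p of 0.05 by limma, beside 0.39% of all 513 tested probes. At an unadjusted p under 0.05 there were 7 stars higher (10%) and 1 lower (1.43%) in LivPGC-1α, beside 10.5% of all tested probes higher and 3.9% lower, so that the share among the stars (11.4%) was near the background (14.4%). In 4 stars the genotypes did not overlap (5.71%, beside 4.87% of all tested probes), namely miR-26b*, miR-181a-1* and miR-17*, higher in LivPGC-1α (4.29%, beside 3.9%), and miR-674*, lower (1.43%, beside 0.975%). In bulk liver, a change in the cells that hold a miRNA and a change in its amount per cell cannot be told apart.

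The size of these differences was small. The median log2 change over the tested stars was 0.03, with 44 above 0 and 26 below, beside 0.01 over all tested probes, and the median standard error of a star's change was 0.07. The side of 0 depends on the scaling of the arrays, since the median over the stars was −0.08 when each array was scaled by its 75th percentile over the probes detected on all arrays, −0.02 with cyclic loess, −0.03 without scaling and 0.06 when the percentile was taken over all probes. Of the stars with an unadjusted p under 0.05, 87.5% were higher in LivPGC-1α after quantile normalization, against 6.67%, 55.6%, 0% and 91.7% under those 4 scalings in the same order. The count of called stars was 0 under quantile normalization but 5 with the 75th percentile over all probes, a scaling under which 80 of all 513 tested probes were called. The statements on single stars that follow are therefore differences relative to the other probes on the array.

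miR-26b*, the star of a guide that restrains growth and that is encoded within a phosphatase gene, had the largest change of the higher stars. Its signal was 4215, 4739, 5128, 4868 and 4146 in LivPGC-1α mice and 3269, 4017.5, 3486, 3919 and 3567 in WT mice. All LivPGC-1α values lay above all WT values. The mean was 4619 ± 425 in LivPGC-1α and 3651 ± 311 in WT (SD, n = 5 each), a log2 change of 0.34 ± 0.08 (SE), which is 1.26-fold (limma adjusted p = 0.105).

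miR-181a-1*, from a hairpin whose guide is known for its role in lymphocyte development, had the smallest p of all stars. Its signal was 1101, 1164, 1159, 1092 and 1121 in LivPGC-1α mice and 1031, 1001, 906, 1031 and 969 in WT mice. The genotypes did not overlap, but these values lie at the edge of detection, which was reached on 4 LivPGC-1α arrays and 2 WT arrays. The log2 change was 0.19 ± 0.04 (SE; limma adjusted p = 0.0875). The star of the second miR-181a hairpin, miR-181a-2*, was brighter and averaged 6853 ± 910 in LivPGC-1α and 6759 ± 1004 in WT (SD, n = 5 each), a log2 change of 0.02 ± 0.12 (SE).

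miR-425* had signals of 3369.6, 3369.6, 3183, 3165 and 3025 in LivPGC-1α mice and 2845, 2769.7, 2807, 2899.7 and 3055 in WT mice. Only the lowest LivPGC-1α value, at 3025, lay below a WT value, that of WT 5. The log2 change was 0.16 ± 0.04 (SE; limma adjusted p = 0.105). miR-17*, from the growth-promoting miR-17-92 cluster, had 5682, 5921, 6449, 5575 and 5494.5 in LivPGC-1α mice and 5149, 5446, 4868, 5402 and 4948.5 in WT mice. The highest WT value and the lowest LivPGC-1α value were close but did not cross, and the log2 change was 0.17 ± 0.05 (SE; limma adjusted p = 0.145).

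miR-200b*, whose guide maintains the epithelial state by repressing Zeb factors and which in liver is associated with biliary cells, had 3259.9, 2937, 3435, 2937 and 2726 in LivPGC-1α mice and 2673, 2859.7, 2302, 2557 and 2769.7 in WT mice. In this case 1 LivPGC-1α mouse lay within the WT range, and the log2 change was 0.22 ± 0.08 (SE; limma adjusted p = 0.247). miR-200a*, which has the same seed and is encoded beside it, was detected only on 2 WT arrays, and its mean signal was 974 ± 42.0 in LivPGC-1α and 976 ± 98.4 in WT (SD, n = 5 each). miR-29c*, of the family whose guides repress collagens, and miR-30c-2*, of the liver-abundant miR-30 family, both had a log2 change of 0.12 ± 0.05 (SE) with overlapping genotypes (limma adjusted p = 0.327 for each).

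miR-674* was the only lower star at an unadjusted p under 0.05. Its signal was 3304, 3493, 3304, 3142 and 3183 in LivPGC-1α mice and 3585, 3521, 4072, 4493 and 3814 in WT mice. The highest LivPGC-1α value was just below the lowest WT value, and the LivPGC-1α mice were closer together. The log2 change was −0.24 ± 0.07 (SE; limma adjusted p = 0.122). It remained below 0 in each of the 25 alternative settings, between −0.33 and −0.19. The changes of miR-26b* and miR-425* remained above 0 in each of 25, between 0.21 and 0.42 for miR-26b* and between 0.05 and 0.22 for miR-425*. These stars were picked by their small p on the same arrays, so that the kept sign is not independent support.

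**Figure D2:**
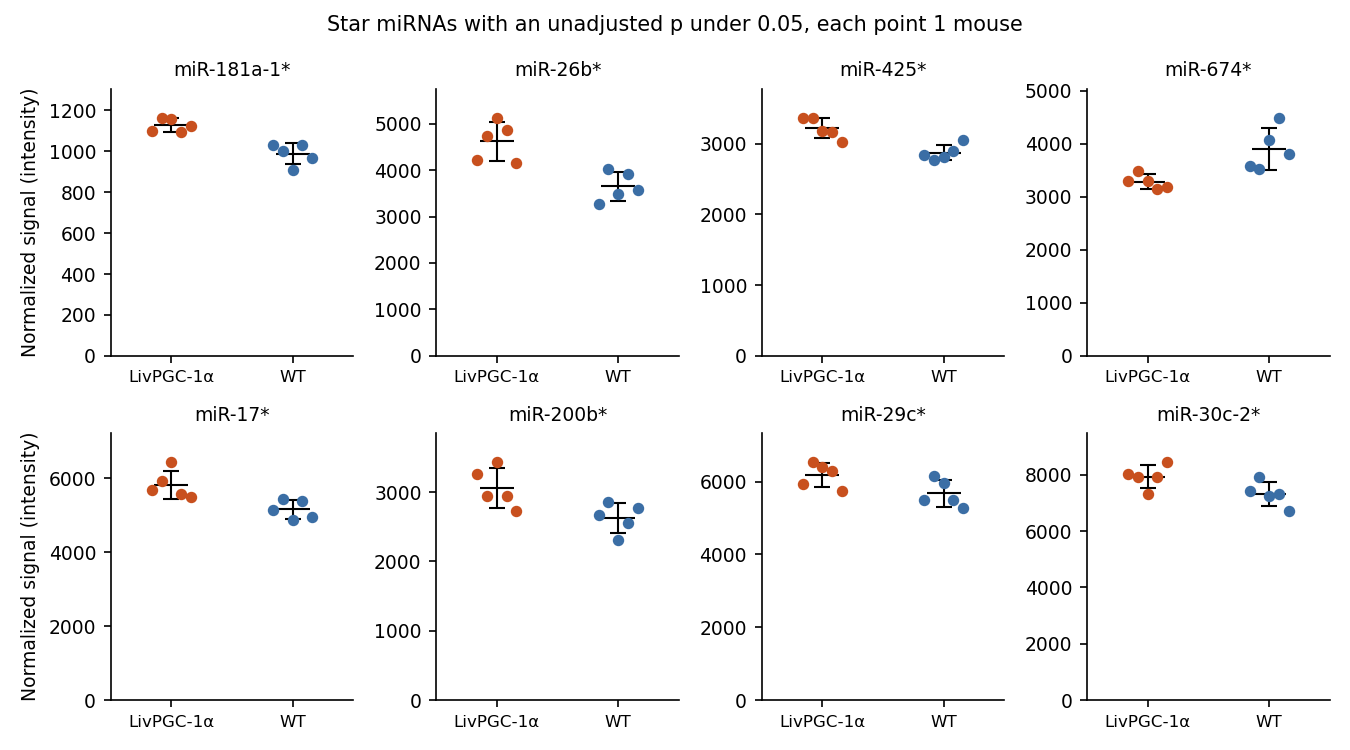
Normalized signal (linear axis from 0) of the 8 star miRNAs with an unadjusted p under 0.05, with 1 point per mouse, LivPGC-1α left of WT, and the mean with its SD as bars (n = 5 each). The groups do not overlap for miR-181a-1*, miR-26b*, miR-674* and miR-17*, and the differences are small beside the levels.

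The next stars in order of p had overlapping genotypes. On the higher side these were miR-455* (log2 change 0.10 ± 0.06, SE), miR-28* (0.11 ± 0.07) and miR-19a* (0.13 ± 0.08). On the lower side they were miR-33* (−0.12 ± 0.06), miR-10b* (−0.22 ± 0.12), miR-22* (−0.09 ± 0.05), miR-29a* (−0.08 ± 0.05), miR-16* (−0.17 ± 0.12), miR-411* (−0.06 ± 0.05), miR-24-2* (−0.08 ± 0.07), miR-106b* (−0.11 ± 0.10) and miR-93* (−0.07 ± 0.07). The limma adjusted p was between 0.449 and 0.722 for these 12 stars. miR-30c-1*, whose hairpin lies within Nfyc, averaged 4977 ± 601 in LivPGC-1α and 4824 ± 254 in WT (SD, n = 5 each), a log2 change of 0.04 ± 0.08 (SE).

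Some stars were detected in 1 genotype only. miR-294*, of an embryonic stem cell cluster, was detected on 3 WT arrays and on 0 LivPGC-1α arrays, yet its signal was 1063, 1070.0, 1035, 980.4 and 1039 in LivPGC-1α mice and 956, 1014, 954, 1089 and 1035 in WT mice. The signals of the genotypes overlapped. The lowest signal that counted as detected was 1164.4, 1118.5, 1145.8, 1035.4 and 1077.9 on the LivPGC-1α arrays and 1046.6, 947.5, 953.9, 1024.2 and 1217.9 on the WT arrays, so that a signal near 1000 was detected on some arrays and not on others. The other stars of this kind (miR-200a*, miR-302a*, miR-483* and miR-708*) were detected on 1 or 2 WT arrays.

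The guides of the 7 higher stars all had an unadjusted p above 0.05 by limma, which does not show that they were equal. miR-26b averaged 39054 ± 267 in LivPGC-1α and 39273 ± 683 in WT (SD, n = 5 each), a log2 change of −0.01 ± 0.02 (SE). The log2 change was −0.05 ± 0.04 for miR-425, −0.06 ± 0.04 for miR-200b, 0.02 ± 0.06 for miR-181a and −0.01 ± 0.02 for miR-29c, and the changes of miR-17 and miR-30c were smaller than their SE of 0.07 and 0.02. miR-674 had a log2 change of −0.09 ± 0.05 (SE), on the side of its star. Over the 67 pairs with both probes tested, the changes of star and guide had the same sign in 34, and their Pearson correlation was 0.24 (Spearman 0.15), a description across pairs that share arrays. The median absolute log2 change was 0.07 over the stars and 0.03 over the guides, beside 0.06 over all probes. Many of the guides lay near the top of the intensity scale, with a mean signal above 40000 in 23 of the 67 pairs, and the part of this in their smaller changes was not tested.

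**Figure D3:**
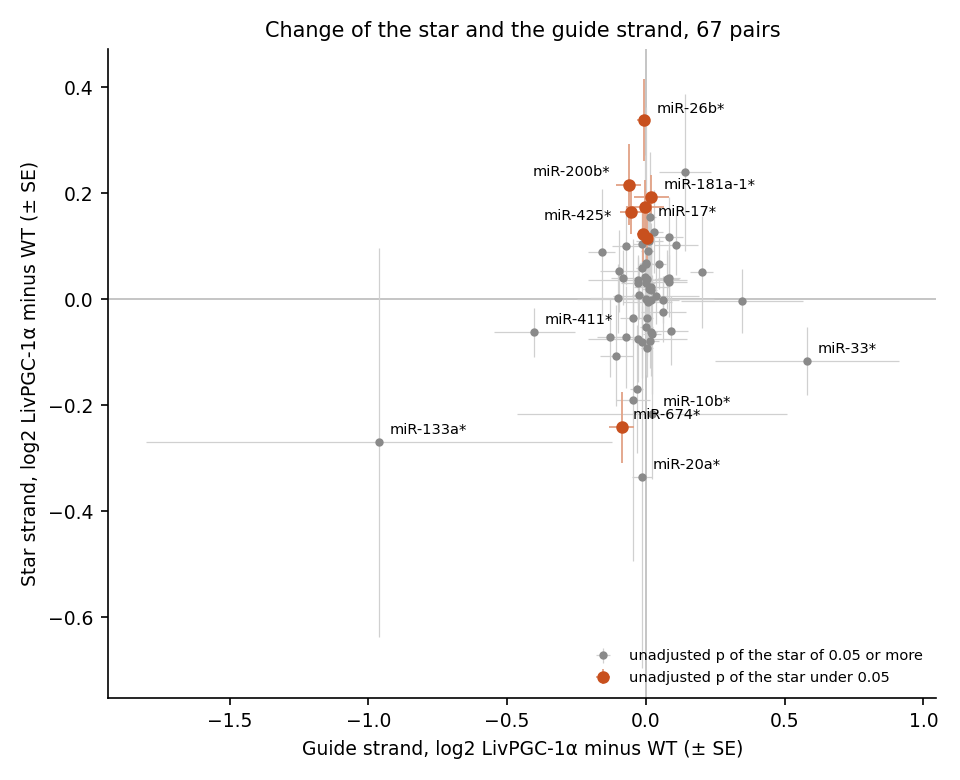
Log2 change, LivPGC-1α minus WT with its SE, of the star strand (vertical) against that of its guide strand (horizontal) for 67 pairs, with the stars at an unadjusted p under 0.05 in orange. The orange points above 0 lie close to 0 on the guide axis, and the widest errors on the guide axis are those of miR-133a, miR-10b and miR-33.

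The guides were read in the same way. Of the 74 tested guides, 0 passed an adjusted p of 0.05 by limma and 6 had an unadjusted p under 0.05 (8.11%, beside 14.4% of all tested probes), 3 higher and 3 lower in LivPGC-1α. Among the higher, miR-10a had a log2 change of 0.20 ± 0.04 (SE) and miR-10a* 0.05 ± 0.11, miR-150 had 0.40 ± 0.08 while miR-150* was not detected, and miR-302c had 0.08 ± 0.03 while miR-302c* was not detected. Among the lower, miR-15a had −0.16 ± 0.05 and miR-15a* 0.09 ± 0.12, miR-93 had −0.13 ± 0.05 and miR-93* −0.07 ± 0.07, and miR-411 had −0.40 ± 0.15 and miR-411* −0.06 ± 0.05. The difference between the strands, tested as the star to guide ratio, did not pass in the 4 of these pairs that could be tested, with log2 changes of −0.15 ± 0.12 (SE) for miR-10a, 0.25 ± 0.14 for miR-15a, 0.06 ± 0.08 for miR-93 and 0.34 ± 0.17 for miR-411 (limma adjusted p between 0.430 and 0.806). miR-33, which represses the cholesterol exporter Abca1, had signals of 4290.3, 3960.5, 6149, 1952 and 1760.2 in LivPGC-1α mice and 2014, 2562, 1760.2, 2394 and 2216 in WT mice. In 3 LivPGC-1α mice this guide lay above all other mice, but its log2 change did not pass (0.58 ± 0.33, SE; limma adjusted p = 0.474). miR-33* had 7917, 7600.4, 7600.4, 8127 and 7329 in LivPGC-1α mice and 7917, 7804, 8741, 9693 and 7804 in WT mice. This star showed no such group, with a log2 change of −0.12 ± 0.06 (SE).

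The ratio of star to guide was then tested within each array, with 1 fit over all 119 pairs of opposite arms in the table. Of the 67 star to guide ratios, 0 passed an adjusted p of 0.05 by limma, as did 0% of all 119. At an unadjusted p under 0.05, 6 were higher (8.96%) and 0 lower in LivPGC-1α, beside 9.24% higher and 2.52% lower among all opposite arm ratios. The count of higher ratios was 10 without WT 2, a setting for which the share of all opposite arm ratios is not given here. With normexp background correction, 1 of all 119 opposite arm ratios was called, the star to guide ratio of miR-181a-1*. Its log2 change was then 0.59 (limma adjusted p = 0.0316, between 0.0316 and 0.542 over its alternatives), against 0.17 in the main fit. The signal of this star lies at the edge of detection, and the part of this in the larger change was not tested. The genotypes did not overlap in 3 ratios (4.48%, beside 2.52%), those of miR-26b, miR-200b and miR-425.

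The log2 ratio of miR-26b* to miR-26b was between −3.22 and −2.93 with a median of −3.06 in LivPGC-1α mice, and between −3.58 and −3.27 with a median of −3.44 in WT mice. The star was thus nearer to its guide in every LivPGC-1α mouse, with a log2 change of 0.35 ± 0.08 (SE; limma adjusted p = 0.146). The log2 ratio of miR-200b* to miR-200b was −2.33, −2.50, −2.27, −2.49 and −2.55 in LivPGC-1α mice and −2.58, −2.65, −2.78, −2.84 and −2.67 in WT mice. The change was 0.28 ± 0.07 (SE; limma adjusted p = 0.146). The log2 ratio of miR-425* to miR-425 was −2.68, −2.65, −2.76, −2.75 and −2.74 in LivPGC-1α mice and −2.89, −2.92, −3.02, −3.04 and −2.79 in WT mice, and its change was 0.22 ± 0.06 (SE; limma adjusted p = 0.146). The ratios of miR-181a-1* (0.17 ± 0.06), miR-17* (0.18 ± 0.07) and miR-29c* (0.13 ± 0.06) overlapped between the genotypes, with limma adjusted p between 0.271 and 0.393.

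The ratios depended on how bright and dim probes were scaled. A factor per array cancels within a ratio, so that both 75th percentile scalings and no scaling give 1 and the same result. Under these scalings, 1 star to guide ratio was higher and 7 were lower by limma at an unadjusted p under 0.05. The share of all opposite arm ratios in these settings is not given here, so the counts are not read as particular to the stars. The log2 change was then 0.17 for miR-26b*, 0.22 for miR-200b*, 0.11 for miR-425*, 0.12 for miR-181a-1*, 0.00 for miR-17* and −0.08 for miR-29c*. With cyclic loess, which like quantile normalization fits bright and dim probes separately, the same ratios changed by 0.30, 0.28, 0.19, 0.15, 0.11 and 0.05.

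**Figure D4:**
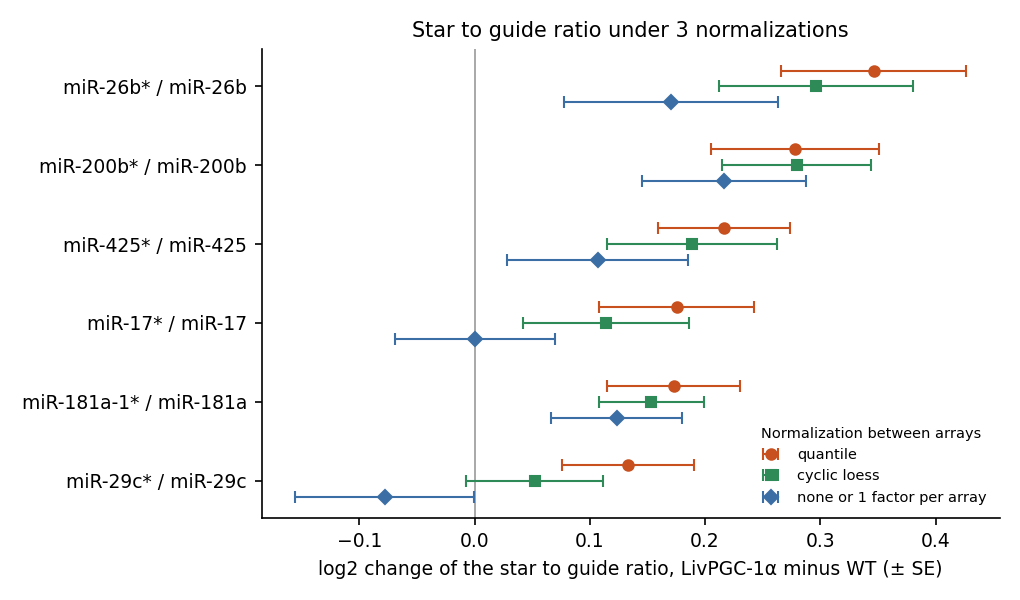
Log2 change of the star to guide ratio, LivPGC-1α minus WT with its SE, for the 6 pairs with the smallest p (vertical) under quantile normalization (orange), cyclic loess (green) and either no scaling or 1 factor per array (blue). The changes of miR-26b, miR-200b, miR-425 and miR-181a-1 lie above 0 under all 3, those of miR-17 and miR-29c reach or cross 0.

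Grouped by hairpin family or by the cell type in which the hairpin is known, the sign of most group medians turned with the scaling. The counts below are to be read against all tested probes, of which 14.4% had an unadjusted p under 0.05 and 221 of 513 were below 0. Of 9 stars on the hepatocyte list, 1 had an unadjusted p under 0.05 (miR-30c-2*), 8 were above 0, and the median log2 change was 0.07, but −0.06 when scaled by the 75th percentile over the probes detected on all arrays. The 5 stars of the miR-30 family were all above 0 (median 0.07, or −0.05 under that scaling), with miR-30e* the brightest and miR-30c-2* at the smallest p. The miR-29 family (3 stars, median 0.09, or −0.04 under that scaling) and the let-7 family (6 tested stars, median 0.04, or −0.02 under that scaling, let-7i* at the smallest p with 0.10 ± 0.08, SE) also changed sign between scalings.

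The groups with a median below 0 under every scaling were the striated muscle list, which holds miR-133a* alone (−0.27, between −0.38 and −0.25 over 7 scalings, but above 0 without WT 1), the 6 stars of the miR-17-92 and miR-106b-25 clusters (median −0.07, between −0.19 and −0.06 over 7 scalings), which include the higher miR-17*, the 3 stars of the miR-15/16 family (median −0.07, between −0.19 and −0.05) and the 2 endothelial stars, miR-218-1* (−0.07 ± 0.08, SE) and miR-218-2* (0.04 ± 0.04). None of these groups had a lower star at an unadjusted p under 0.05. Of the leukocyte stars, 4 of 5 were tested and all 4 were above 0 (median 0.12, or −0.01 when scaled by the 75th percentile over the probes detected on all arrays), with miR-181a-1* at the smallest p. The summed signal of 5 leukocyte marker miRNAs, miR-150 among them, was 108866 to 122880 in LivPGC-1α and 97183 to 119109 in WT, and its part in these values was not tested. The star of miR-31 averaged 14143 ± 216 in LivPGC-1α and 14529 ± 1022 in WT (SD, n = 5 each) and was the brightest of the epithelial list, in which miR-200b* had the smallest p and the median of 4 tested stars was −0.00, or 0.04 when scaled by the 75th percentile over all probes. In 5 further lists the sign also changed between scalings. The brain list had 1 tested star, miR-488* (0.01, between −0.12 and 0.04), and no star fell on the erythroid list. The median was 0.03 over the 5 stars of the stellate cell, fibroblast and smooth muscle list (between −0.03 and 0.11 over 7 scalings). It was 0.04 (between −0.07 and 0.06) over the 7 stars of a list drawn up for genes of metabolism, which holds miR-26b* and miR-30c-2*. That list went by hairpin name, and its title does not describe every member. RefSeq gives no gene over the miR-30c-2 hairpin, and the hairpins of miR-106b and miR-93 lie within Mcm7. The median was 0.00 over the 4 stars of the miR-23-27-24 clusters (between −0.13 and 0.01). Over the 4 tested stars of the embryonic stem cell clusters it was 0.03 (between −0.08 and 0.10).

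A few stars stood out in single WT mice. miR-133a*, from a hairpin restricted to striated muscle, had 2311, 2357, 2394, 2399.8 and 2251 in LivPGC-1α mice and 8461, 2331, 1952, 2331 and 2005 in WT mice. The 1 high value belonged to WT 1, the mouse with the high striated muscle sum, where the guide miR-133a had a signal of 33336.5 against 1277 to 1877 in the other WT mice. Its log2 change was −0.27 ± 0.37 (SE) with WT 1 and 0.12 without it.

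miR-20a* and miR-744*, chosen after their values were seen, were both high in WT 5. miR-20a* had 3333, 3198, 3681, 3333 and 3109.7 in LivPGC-1α mice and 3333, 3174, 2769.7, 3642 and 12196 in WT mice. miR-744* had 2406, 2284, 2826, 2744 and 2394 in LivPGC-1α mice and 2284, 2368, 2155, 2406 and 7048 in WT mice. In WT 5 the star was 3.66 and 2.94 times the median of the other 9 mice, whereas the guide miR-20a was at 40826 in WT 5 and between 43327 and 46425 in the other WT mice, and miR-744 was at 7535 in WT 5 and between 7254 and 8741 in the others. The guide probe of either pair was thus not high in the mouse whose star probe was. The miR-20a probe, with a mean signal of 43615, lies near the top of the scale. A rise as large as that of its star could not have shown there.

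**Figure D5:**
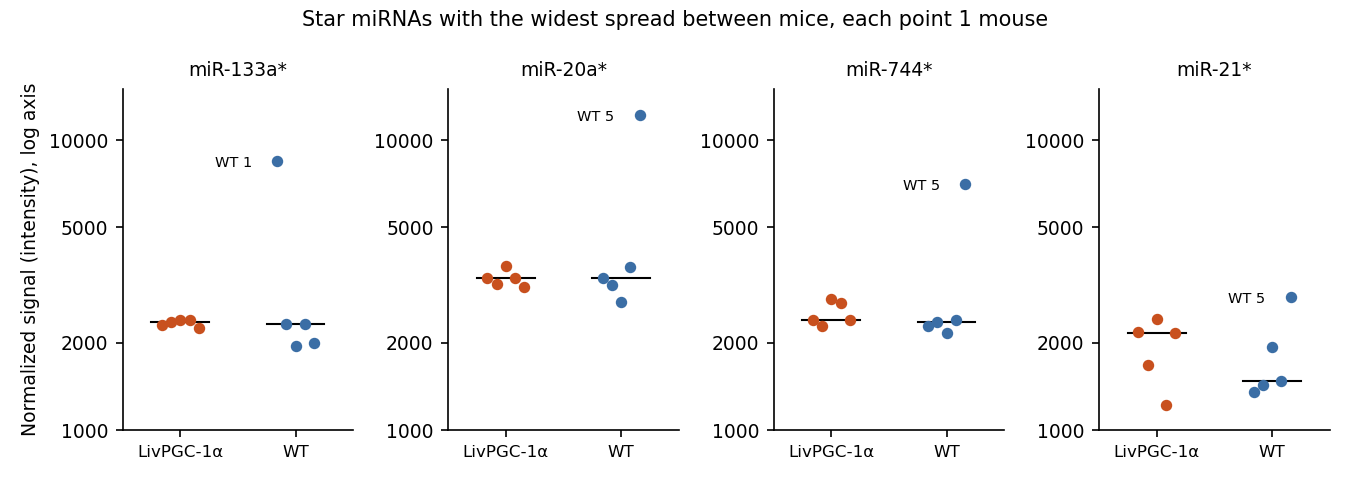
Normalized signal (log axis) of the 4 star miRNAs with the widest spread between WT mice, with 1 point per mouse, LivPGC-1α left of WT, and the median as a bar (n = 5 each). miR-133a* is high in WT 1 alone, miR-20a* and miR-744* in WT 5 alone, and miR-21* varies in both genotypes.

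miR-21*, the star of a guide that is abundant in hepatocytes and induced in inflammation, varied in both genotypes. Its signal was 2188, 1676, 2422, 1222 and 2155 in LivPGC-1α mice and 1349.9, 1428, 1928, 1478 and 2878 in WT mice. The genotypes overlapped over most of their range. Leaving out WT 1 and WT 3 left 3 stars higher and 3 lower at an unadjusted p under 0.05 (8.57%, beside 10.3% of all tested probes), and leaving out WT 1, WT 3 and WT 5 left 3 higher and 2 lower (7.14%, beside 10.8%), with 0 called by limma in both cases.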

How the data were processed

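Livers of 5 LivPGC-1α and 5 WT mice were profiled on 1 Illumina miRNA BeadChip. The table deposited by the authors gives, per probe and array, a raw bead intensity (not normalized, linear scale) and a detection p-value against the negative controls. A second table that the authors deposited holds normalized intensity values and was used as an alternative. Intensities were quantile-normalized between arrays over 655 probes, values under 1 were set to 1, and log2 was taken with no offset. Probes with a detection p of at most 0.01 on at least 1 array (513) were tested with limma 3.58.1 in R 4.3.3 (lmFit, eBayes), LivPGC-1α minus WT, with Benjamini-Hochberg adjustment over all of them and a threshold of 0.05. Star to guide ratios (log2 star minus log2 guide on each array) were fitted over all 119 opposite-arm pairs with both probes tested, and adjusted over these. The script was tested on simulated data. Quantile normalization sets every array to the same distribution, so that only changes relative to other probes are measured. Bead arrays give no read depth, and the number of arrays limits the precision.

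Guides were matched by name, for 9 stars after removing a copy number, and miR-125b* was left unpaired because the array names the other probes of that hairpin miR-125b-5p and miR-125b-3p. miR-411* and miR-712*, which the file places on no chromosome, were kept as members, although RefSeq places miR-411* on chromosome 12, which the selection otherwise leaves out. Stars were named, 39 in all, by these rules: the 10 with the smallest unadjusted p in each direction, the 6 brightest, those detected on at least 3 arrays of 1 genotype and none of the other, the 6 ratios with the smallest p, up to 8 brighter than their guide on all arrays, the smallest p and the brightest of each list, and miR-30c-1*. Others named with values (miR-330*, miR-24-1*, miR-20a*, miR-744*, miR-21*, miR-200a*, miR-10a* and miR-15a*) and all guides with p-values of their own were chosen after their values were seen. The members, gene lists and markers were chosen with earlier results of these data known. Alternatives covered scaling, background correction, the detection filter, array weights, the variance model, chip position, the replicate number as a block and leaving out arrays.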

Additional observations from a re-analysis of the deposited data

Results flagged for a closer look

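The 70 tested stars and a pair of per-array measures were checked in each group of 5 mice for a mouse whose gap to its nearest neighbour exceeded 0.71 of the whole range of its group on the log2 scale (Dixon's limit for 5 values). Such a mouse was found in 10 groups, where chance at 1 in 20 would give about 7.2 over all groups checked.

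In WT, miR-744* (gap 0.907 of the range) and miR-20a* (0.815) were high in WT 5 and miR-133a* (0.879) in WT 1, with the signals given above. let-7g* was at 10942 in WT 2 and between 8811 and 8971 in the other WT mice (0.917). miR-10a* was at 1665 in WT 5 and between 1089 and 1218 in the others (0.736), and miR-29a* was at 13079.8 in WT 5 and between 14725 and 15419.9 in the others (0.72). miR-200a* was at 1146 in WT 4 and between 908 and 967 in the others (0.73), near its detection limit.

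In LivPGC-1α, LivPGC-1α 3 stood apart in each case. miR-712* was at 1457 in that mouse and between 1604 and 1631 in the other LivPGC-1α mice (0.852), miR-27b* was at 2735 and between 2155 and 2284 in the others (0.756), and miR-295* was at 4072 and between 4909.7 and 5284 in the others (0.718). By animal, WT 5 stood apart in 4 groups, LivPGC-1α 3 in 3, and WT 1, WT 2 and WT 4 in 1 each.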

How the results depend on the processing

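The changes of miR-26b*, miR-181a-1*, miR-425*, miR-17*, miR-200b* and miR-674* kept their sign under every alternative in which they were tested, while calls and counts depended on the scaling. These stars were picked by their small p on the same arrays that the alternatives use again. Counts of ratios at an unadjusted p under 0.05 are given below without the share of all opposite arm ratios. They are not read as particular to the stars. Genotype and chip position are nearly collinear, the arrays give no depth, and signals near 1000 lie at the detection limit, so that small changes of dim stars cannot be resolved.

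When arrays were scaled by the 75th percentile over all probes, 5 stars were called of 80 called probes, all higher in LivPGC-1α, with limma adjusted p of 0.0405 for miR-26b* (0.0405 to 0.748 over its alternatives), 0.0405 for miR-181a-1* (0.0405 to 0.748), 0.0405 for miR-425* (0.0405 to 0.748), 0.0429 for miR-455* (0.0429 to 0.970) and 0.0474 for miR-30e* (0.0474 to 0.940). In this setting 11 stars were higher at an unadjusted p under 0.05 (17.1% of the stars in either direction, beside 32.7% of all tested probes), and the log2 change of the star miRNAs that turned was 0.019 for miR-22*, 0.036 for miR-31* and 0.028 for miR-872*.

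With the 75th percentile over the probes detected on all arrays, 1 star was higher and 14 were lower (21.4%, beside 18.9% of all tested probes), and the median log2 change of the star miRNAs was −0.076. The log2 change was then −0.0070 for let-7d*, −0.0030 for let-7i*, −0.11 for miR-181a-2*, −0.048 for miR-183*, −0.10 for miR-218-2*, −0.068 for miR-294*, −0.044 for miR-29c*, −0.070 for miR-30c-1*, −0.00088 for miR-30c-2*, −0.054 for miR-483* and −0.12 for miR-488*. Without normalization, 0 stars were higher and 2 lower by limma at an unadjusted p under 0.05 (2.86%, beside 6.63%), the median log2 change of the star miRNAs was −0.028, and the log2 change was −0.064 for miR-181a-2*, −0.0013 for miR-183*, −0.055 for miR-218-2*, −0.021 for miR-294*, −0.023 for miR-30c-1*, −0.0072 for miR-483* and −0.075 for miR-488*. In these 3 settings the star to guide ratios were the same, with 1 higher, 7 lower and a log2 change of −0.078 for the ratio miR-29c* to miR-29c. With cyclic loess 4 stars and 1 ratio were lower (stars in either direction 12.9%, beside 15.2%), the median log2 change of the star miRNAs was −0.018, and the log2 change was −0.014 for let-7d*, −0.032 for miR-181a-2*, −0.033 for miR-218-2*, −0.0067 for miR-294* and −0.054 for miR-488*.

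With normexp, 1 of all 119 opposite arm ratios was called, the star to guide ratio of miR-181a-1*, a star at the edge of detection. Its log2 change was 0.59 (limma adjusted p = 0.0316, between 0.0316 and 0.542 over its alternatives). With array weights, 2 stars and 1 ratio were lower (stars in either direction 12.9%, beside 14.4%), and the log2 change was −0.0072 for miR-181a-2* and 0.0027 for miR-200c*. Without a detection filter 2 ratios were lower. With a linear term for chip position 4 ratios were lower, and the log2 change was 0.78 for miR-133a*, −0.036 for miR-183*, 0.041 for miR-218-1* and 0.019 for miR-93*.

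Without WT 1 and WT 3, 3 stars were higher, 3 stars lower (8.57%, beside 10.3%) and 1 ratio lower, and the log2 change was 0.080 for miR-133a*, −0.011 for miR-294*, −0.0043 for miR-483* and −0.012 for miR-488*. Without WT 1, WT 3 and WT 5, 3 stars were higher and 2 lower (7.14%, beside 10.8%), the median log2 change of the star miRNAs was −0.031, and the log2 change was −0.0027 for let-7d*, 0.0080 for miR-133a*, −0.094 for miR-181a-2*, −0.069 for miR-183*, −0.020 for miR-199b*, −0.028 for miR-218-2*, −0.029 for miR-28*, −0.017 for miR-294*, −0.032 for miR-30c-1*, −0.0079 for miR-483* and −0.12 for miR-488*. These exclusions were chosen with the arrays' values known.

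When each array was left out in turn, 0 stars and 0 ratios were called by limma. At an unadjusted p under 0.05, 5 to 9 stars were higher and 1 to 2 lower, and 4 to 10 ratios were higher and 0 to 2 lower. The stars in either direction were 8.57% to 14.7% of those tested, beside 11.9% to 16.3% of all tested probes. The median log2 change of the star miRNAs was 0.01 to 0.04. Without WT 2, 9 stars and 10 ratios were higher (stars in either direction 14.7%, beside 16.3% of all tested probes). The log2 change changed sign for miR-133a* (−0.40 to 0.12, above 0 without WT 1), miR-15b* (−0.13 to 0.015), miR-181a-2* (−0.058 to 0.093), miR-200c* (−0.046 to 0.048), miR-30c-1* (−0.018 to 0.10), miR-31* (−0.062 to 0.0029), miR-488* (−0.032 to 0.064) and miR-872* (−0.059 to 0.010).

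Mice with the same replicate number did not deviate together, with correlations of −0.37 to 0.33 over the 5 numbers, and 1 of 10 mice correlated best with its own number. With the replicate number as a block, 0 stars were called by limma, and 5 were higher and 1 lower at an unadjusted p under 0.05 (8.57%, beside 11.5%). The cause of these differences between settings was not tested.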
